A study of Mus musculus with 6 samples.

Results

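The Hox genes were followed in cultured mesenchymal cells of the mouse small intestine, as the 39 genes of the Hoxa, Hoxb, Hoxc and Hoxd clusters among the 23329 genes with a row in the count tables. Members were taken by name, so that every gene called Hoxa, Hoxb, Hoxc or Hoxd followed by its paralogue number was kept, and no expression value entered the choice. The 39 genes comprise 11 of Hoxa, 10 of Hoxb, 9 of Hoxc and 9 of Hoxd. Primary cultures of 2 kinds, 3 libraries each, were compared: cells of embryos at embryonic day 14.5 (E14.5) and cells of adults, both from the C57 strain, with no genetic change or drug contrast named and no age given for the adults. Both groups shared epithelial removal by chelation, digestion by collagenase and dispase, and growth in serum with Y27632, and RNA was taken at passage 2 to 3. The adult villi had been scraped off first, whereas the embryonic gut had been cut into pieces, and the labels do not name the stretch of small intestine used. No sort was named, and it is not stated if cultures were made from different animals, litters or pools, so p-values measure only the spread between these cultures.

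Hox genes encode homeodomain transcription factors that give cells along the body axis their positional address. They lie in 4 clusters, and within each cluster the order of the genes follows the order of their expression from head to tail, with low paralogue numbers in front and high numbers behind. Mesenchymal cells such as fibroblasts are known to keep a Hox code of their site of origin in culture. In the gut mesenchyme, genes of the central groups are typical of the small intestine, whereas the most posterior groups mark the caecum and the hindgut. Groups 1 to 3 are called anterior, 4 to 8 central and 9 to 13 posterior here.

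Each library held between 18850224 counts (adult replicate 2) and 32672370 counts (E14.5 replicate 1) in gene rows. Mesenchymal marker genes were abundant in all 6 libraries, as the cell type label states, and their summed level was 25439 to 34294 CPM in E14.5 and, in adult cultures, 19723 to 33217 CPM. CPM are counts scaled to a common library size. Of these 8 markers Pdgfra, a fibroblast receptor, fell in E14.5, from 29.5, 81 and 31.7 CPM in adult cultures to 2.47, 3.85 and 4.45 CPM (log2 fold change -3.72, SE 0.50, edgeR adjusted p = 0.036, 0.040 to 0.141 when 1 library was left out, and 0.081 with limma-voom). The 10 epithelial markers summed to between 49.6 and 157 CPM. Of these, Epcam had at most 4 counts and Cdx2 and Fabp2 had 0 counts in every library, whereas the keratins Krt18 (16.9 to 83.7 CPM), Krt20 (9.09 to 61.4 CPM) and Krt8 (4.33 to 33.8 CPM) were present in all 6. The sum of 11 endothelial markers was 1914 CPM in adult replicate 2 and 431 CPM in adult replicate 3, and between 20 and 63.1 CPM in the others. The sum of 13 macrophage and leukocyte markers was 2982 CPM in E14.5 replicate 3 and between 25.8 and 476 CPM in the others. In bulk RNA of this kind, fewer cells of a type and less RNA per cell cannot be told apart.

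The sequences in front of 4 members are shown because 3 of them, Hoxa10, Hoxd10 and Hoxd11, were among the genes that differed most between cultures of one group, while Hoxa5 was present in all 6 cultures. Each line gives the 250 bases before the RefSeq transcript start, 5′ to 3′ on the gene's own strand, in the mm10 build, with CG dinucleotides in capitals. The windows are chr6:52234940-52235189 on the minus strand for Hoxa10 (its inner start), chr2:74691641-74691890 on the plus strand for Hoxd10, chr2:74682073-74682322 on the plus strand for Hoxd11 (its inner start), and chr6:52204588-52204837 on the minus strand for Hoxa5. None of the 4 overlaps an annotated GENCODE exon.
Hoxa10: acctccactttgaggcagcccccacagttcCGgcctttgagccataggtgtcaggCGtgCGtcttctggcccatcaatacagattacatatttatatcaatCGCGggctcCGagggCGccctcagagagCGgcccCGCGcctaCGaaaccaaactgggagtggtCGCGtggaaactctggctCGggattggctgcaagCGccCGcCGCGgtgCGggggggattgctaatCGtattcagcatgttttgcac
Hoxd10: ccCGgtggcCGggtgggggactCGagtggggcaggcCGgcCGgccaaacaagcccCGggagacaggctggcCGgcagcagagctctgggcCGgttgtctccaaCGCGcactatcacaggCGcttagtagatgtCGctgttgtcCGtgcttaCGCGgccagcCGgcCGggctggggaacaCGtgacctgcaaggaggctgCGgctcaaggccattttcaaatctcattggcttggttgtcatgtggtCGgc
Hoxd11: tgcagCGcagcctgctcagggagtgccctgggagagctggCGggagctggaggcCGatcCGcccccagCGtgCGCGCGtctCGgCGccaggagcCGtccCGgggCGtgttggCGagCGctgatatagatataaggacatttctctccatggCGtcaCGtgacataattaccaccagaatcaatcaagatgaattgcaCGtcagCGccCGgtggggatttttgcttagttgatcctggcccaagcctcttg
Hoxa5: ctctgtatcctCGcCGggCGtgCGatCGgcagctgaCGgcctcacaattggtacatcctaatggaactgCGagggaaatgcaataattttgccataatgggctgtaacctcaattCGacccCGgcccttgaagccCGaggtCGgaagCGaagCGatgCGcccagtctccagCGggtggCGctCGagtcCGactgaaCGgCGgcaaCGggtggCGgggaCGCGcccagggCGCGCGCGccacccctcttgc
CG dinucleotides, where DNA methylation occurs, were frequent in the 4 windows shown. Hoxa10, Hoxd10 and Hoxd11 each held 20, at the 82.9 percentile of all 32851 RefSeq windows of this length, and Hoxa5 held 28, at the 92.8 percentile. The outer starts had fewer, with 7 for Hoxa10 (55.3 percentile) and 2 for Hoxd11 (23.9 percentile). Windows were available for 22 of the 39 Hox genes, 24 windows in all, and their median was 12.5 CG dinucleotides against 6 over all windows. Motifs were searched as letters on both strands. TGATNNAT, a composite HOX and PBX site, was found in 4 of the 24 Hox windows (Hoxd11 inner start, Hoxa2, Hoxb8 and Hoxb1) and in 7.68% of all windows. TAATTA, the homeodomain core, was found in both windows of Hoxd11 and in 4.84% of all windows, and CCATAAA, bound by CDX factors, in that of Hoxd4 and in 2.43% of all windows. The CTCF motif searched had a match in 0.0335% of all windows and in none of the Hox windows. A match describes these letters only and was not linked to binding.

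Whether embryonic and adult cultures differ in Hox expression was asked first. Of the 39 genes, 28 had enough counts in at least 3 libraries to be tested and 11 did not. Among the 11 were Hoxa10 (406 and 211 counts in E14.5 replicates 1 and 2) and Hoxa11 (304 and 153), which the tally of calls therefore leaves out. None of the 28 passed the threshold of an adjusted p under 0.05 in edgeR's quasi-likelihood test in either direction. Over all 13478 genes tested, 146 passed (1.08%), 33 of them higher in E14.5 (0.245%) and 113 lower (0.838%). At an unadjusted p under 0.05 there were 4 Hox genes, Hoxb2, Hoxc13, Hoxd4 and Hoxd8, against 17.9% of all genes tested, a share close to this background. The log2 fold change of E14.5 over adult was positive for 15 and negative for 13, with a median of 0.07 against 0.01 over all genes tested. DESeq2, which called 11% of the genes to which it gave an adjusted p, called 3 Hox genes, with Hoxa13 and Hoxd11 higher and Hoxd8 lower in E14.5.

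**Figure D1:**
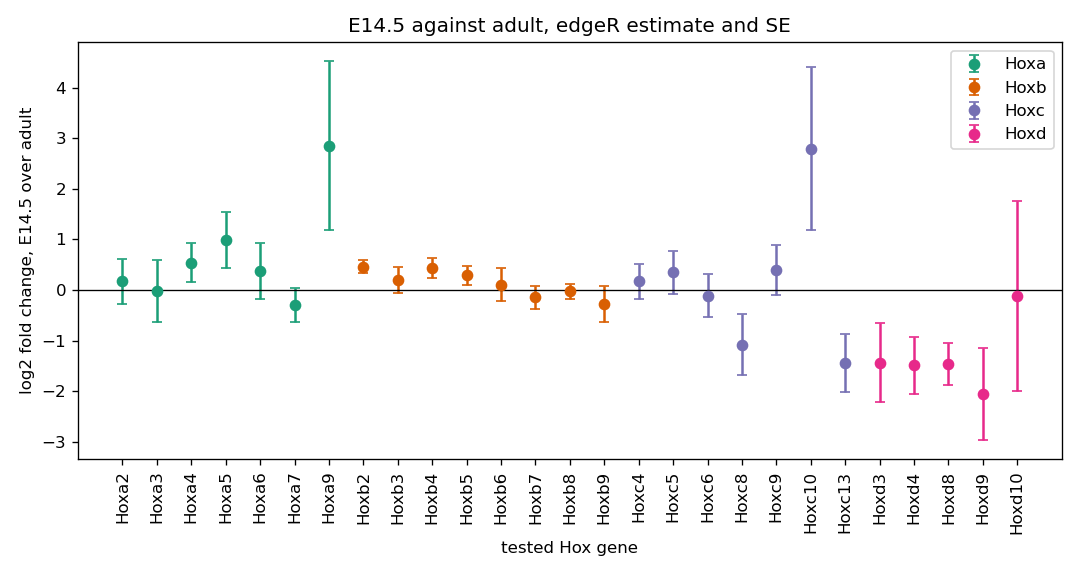
Log2 fold change of E14.5 over adult cultures (y axis) for 27 of the 28 tested Hox genes in order of cluster and paralogue group (x axis). Points are edgeR estimates and bars are 1 standard error, and all 5 tested Hoxd genes lie below 0 while Hoxa9 and Hoxc10 have the longest bars above it.

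Wide differences between cultures of the embryonic group lay among the posterior genes of 3 clusters. In paralogue groups 9 to 13, which hold 16 genes, 7 were present in E14.5 replicates 1 and 2 and at 0 to 2 counts in E14.5 replicate 3, a library of like depth. This pattern was noticed in the values and then written as a rule (at least 10 counts in replicates 1 and 2 and at most 2 in replicate 3), so it is a description with no test. Over all rows, 25 genes met the rule (0.107%), or 0.192% of the 12998 rows with at least 10 counts in both replicates 1 and 2. With a minimum of 20 counts, 10 rows met it (0.0429%) and 7 of these were the Hox genes, and with a minimum of 5 counts the same 7 Hox genes were among 103 rows (0.442%).

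Hoxa9, Hoxa10 and Hoxa11 follow each other in the Hoxa cluster. Hoxa10, a group 10 factor known from the patterning of the lumbar region and the reproductive tract, had 406, 211 and 0 counts in E14.5 replicates 1, 2 and 3, and 7, 5 and 0 in adult replicates 1, 2 and 3. Hoxa11, a factor needed for kidney, limb and uterus development, had 304, 153 and 0 counts in E14.5 and 1, 0 and 0 in adult cultures. Hoxa9, at the anterior edge of this stretch, had 61, 53 and 0 counts in E14.5 and 0, 9 and 2 in adult cultures. The first 2 embryonic cultures were thus high, whereas the third embryonic culture lay with the adult ones, so that the groups overlapped for all 3 genes. Taking 3 counts as the floor of a library, Hoxa10 was at least 137-fold higher in E14.5 replicate 1 and at least 70.6-fold higher in replicate 2 than in replicate 3. The corresponding bounds were 103 and 51.2 for Hoxa11 and 20.6 and 17.7 for Hoxa9. Bounds here and below allow for counting error in the low library or group alone and take the higher level as observed. Intervals here cover counting error only.

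The antisense transcript of Hoxa11 (Hoxa11as in the tables, Hoxa11os in RefSeq) had 94, 51 and 0 counts in E14.5 and 0, 1 and 0 in adult cultures, the same order of libraries as its partner. The counts of the 2 were separated by strand in these tables.

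In the Hoxd cluster, Hoxd10 had 261, 136 and 0 counts in the 3 embryonic cultures and 1, 241 and 43 in the adult ones. Hoxd10, a limb and spinal cord patterning gene, was therefore at 0 or 1 count in 1 culture of each group and abundant in others of both. Hoxd11, which acts with Hoxa11 in the kidney and forearm, had 124, 63 and 2 counts in E14.5 and 1, 2 and 0 in adult cultures. Hoxd13, the last gene of the cluster and a digit and hindgut factor, had 22, 41 and 0 counts in E14.5 and 0, 1 and 1 in adult cultures. Hoxd11 and Hoxd13 were high in embryonic replicates 1 and 2 alone, whereas Hoxd10 was also high in adult replicate 2. Against the floor of 3 counts in E14.5 replicate 3, the bounds were 88.1 and 45.5 for Hoxd10 and 7.42 and 13.7 for Hoxd13 in replicates 1 and 2. For Hoxd11, which had 2 counts in replicate 3, the ratios to that floor were 41.8 and 21.1 and are no bounds. Hoxd12, which lies between these genes, had 3 counts in E14.5 replicate 1 and 0 in the other 5 libraries.

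In the Hoxc cluster only Hoxc10, another lumbar and hindlimb gene, met the rule. It had 152, 146 and 0 counts in E14.5 and 23, 1 and 11 in adult cultures, at least 51.3-fold and 48.9-fold above E14.5 replicate 3 in replicates 1 and 2. Adult replicates 1 and 3 thus lay between the embryonic cultures for this gene.

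**Figure D2:**
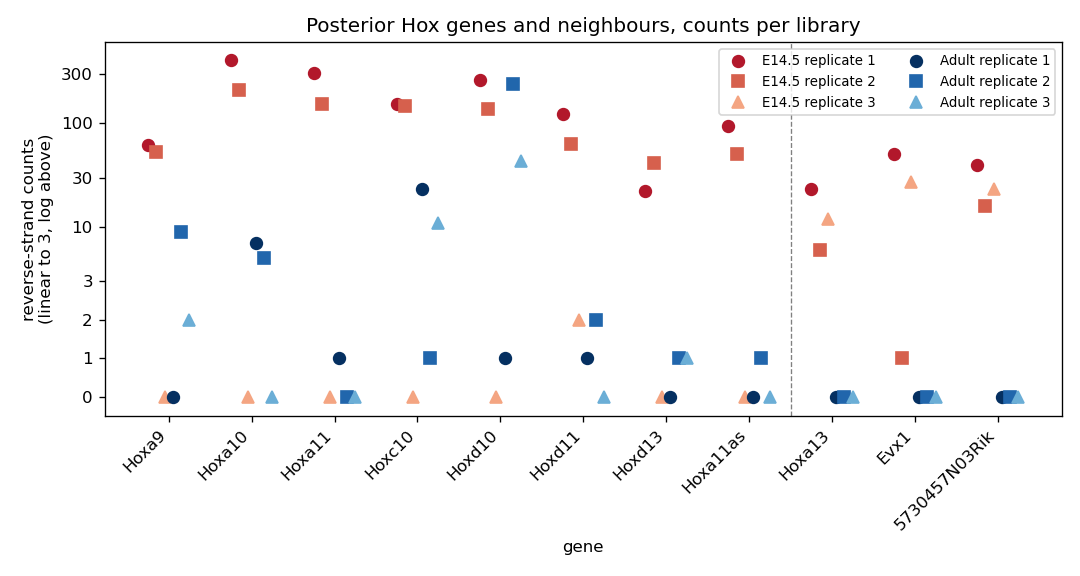
Reverse-strand counts per library (y axis, linear to 3 and logarithmic above) of the 7 posterior Hox genes and the antisense transcript Hoxa11as, and, right of the dashed line, of Hoxa13, Evx1 and 5730457N03Rik. E14.5 replicates 1 and 2 stand at 22 to 406 counts and E14.5 replicate 3 at 0 to 2 counts for the 7 Hox genes, while all adult libraries are at 0 for the 3 genes on the right.

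In the edgeR fit of all 6 libraries none of these genes was called. Hoxa9 (log2 fold change 2.85, SE 1.67, edgeR adjusted p = 0.456), Hoxc10 (2.79, SE 1.61, adjusted p = 0.450) and Hoxd10 (-0.12, SE 1.88, adjusted p = 0.983) were tested. The other 4 did not pass the filter, which asks for enough counts in at least 3 libraries. Without E14.5 replicate 3, edgeR called Hoxa11 (log2 fold change 8.65, adjusted p = 0.031), beside 0.807% of all genes tested in that fit. Since Hoxa11 was singled out for being absent from that very library, nothing is read from this call. DESeq2, also on all 6 libraries, called Hoxd11 (log2 fold change 5.52, adjusted p = 0.005) and not Hoxa11 (8.37, adjusted p = 0.056). Fitted values of genes near 0 counts in the adult cultures depend on the model and are no bounds.

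E14.5 replicate 3 was also the culture with the highest leukocyte marker sum, 2982 CPM against 260 and 476 CPM in E14.5 replicates 1 and 2. Its mesenchymal marker sum was 29435 CPM, between those of replicate 1 (34294 CPM) and replicate 2 (25439 CPM). The part of other cells in the posterior Hox pattern was not tested. Central Hox genes were present in all 3 embryonic cultures: Hoxb8 was at 18, 21.8 and 16.8 CPM and Hoxc6 at 46.2, 24.5 and 32 CPM in E14.5 replicates 1, 2 and 3. Among the other rows that met the rule, and chosen after their values were seen, Six2 had 11, 22 and 0 counts in E14.5 and 0, 2 and 0 in adult cultures, and Nkx2-5 had 16, 16 and 1 in E14.5 and 3, 6 and 2 in adult cultures. Both are factors of the pyloric mesenchyme, and the others of that list varied in order. In E14.5 replicates 1, 2 and 3, Barx1 had 8, 2 and 0 counts and Isl1 had 29, 4 and 4. In the same libraries Nkx3-2 had 8, 1 and 10 counts and Gata3 had 87, 37 and 44. Gata4, a factor of the proximal intestine, had 29, 10 and 0 counts in E14.5 and 50, 67 and 77 in adult cultures, so it was low in the same embryonic library but high in the adult group.

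A different order was seen at the far end of the Hoxa cluster. Hoxa13, a hindgut and urogenital factor, had 23, 6 and 12 counts in E14.5 replicates 1, 2 and 3 and 0 counts in every adult library. Evx1, the even-skipped homologue next to it, had 50, 1 and 27 counts in E14.5 and 0 in every adult library. The transcript 5730457N03Rik (Evx1os in RefSeq), antisense to Evx1, had 40, 16 and 23 counts in E14.5 and 0 in the adult libraries. All 3 genes were thus at 0 counts in every adult library, and E14.5 replicate 3, without Hoxa9, Hoxa10 and Hoxa11, held Hoxa13. Evx1 was below the floor of 3 counts in E14.5 replicate 2, so its embryonic mean rests on replicates 1 and 3. The share of all genes at 0 in every adult library and present in E14.5 was not computed, so nothing is read from this tally. On mean CPM against the adult floor of 3 counts per library, Hoxa13 was at least 3.47-fold, Evx1 at least 6.6-fold and 5730457N03Rik at least 6.68-fold higher in E14.5. Hoxa13 was too low for the filter of edgeR. Kept without a filter it had an adjusted p of 0.128 in edgeR, and DESeq2 called it (adjusted p = 0.013). 5730457N03Rik was tested and had an edgeR adjusted p of 0.072.

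From Hoxa2 to Hoxa7, Hoxa genes were present in all 6 cultures. The 8 tested Hoxa genes, Hoxa9 among them, had a median log2 fold change of 0.27, with 6 positive and 2 negative. Hoxa5, a factor of the lung and foregut mesenchyme, was at 40.5, 10.3 and 32.3 CPM in E14.5 and 8.22, 20.2 and 13.6 CPM in adult cultures. Hoxa5 was highest in embryonic replicates 1 and 3, but embryonic replicate 2 lay within the adult range, so the log2 fold change of 0.99 (SE 0.55) did not pass edgeR's test (adjusted p = 0.431). Hoxa3, a pharyngeal arch and thymus gene, was at 12.2, 2.2 and 8.4 CPM in E14.5 and 5.04, 9.49 and 8.65 CPM in adult cultures, and its log2 fold change of -0.02 (SE 0.61) changed sign between scalings. Hoxa3 and Hoxa5 were both lowest of the embryonic group in replicate 2, as were Hoxa2, Hoxa4, Hoxa6 and Hoxa7. For Hoxa7 the gap was small (2.92 CPM against 3.15 CPM in replicate 3). The share of all genes lowest in that library was not computed, and neighbouring Hox genes are not independent. Hoxa2, Hoxa4, Hoxa6 and Hoxa7 had log2 fold changes of -0.30 to 0.54.

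The Hoxb cluster showed the steadiest levels. Hoxb2 to Hoxb9 were all tested, with a median log2 fold change of 0.15 (5 positive, 3 negative, from -0.27 to 0.46) and a median spread between cultures of 0.27 on the log2 CPM scale. Hoxb2, which patterns the hindbrain, was at 44, 45.6 and 40.1 CPM in E14.5 and 27.5, 30.9 and 35.8 CPM in adult cultures. All 3 embryonic cultures lay above all 3 adult ones, as was so, in one direction or the other, for 24.1% of all genes tested and for 3 of the 28 tested Hox genes. The mean was 43.2 ± 2.79 CPM (SD, n = 3) in E14.5 and 31.4 ± 4.15 CPM (SD, n = 3) in adult cultures. Its log2 fold change was 0.46 (SE 0.13), with an edgeR p of 0.0123 and an adjusted p of 0.150.

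Hoxb9, a thoracic factor, was at 37.2, 18.4 and 15.9 CPM in E14.5 and 31.2, 33.7 and 21.6 CPM in adult cultures (log2 fold change -0.27, SE 0.36, edgeR adjusted p = 0.776). Hoxb3, which acts with its paralogues in the neck and hindbrain, was at 32.4, 19.8 and 32.9 CPM in E14.5 and 18.4, 29.5 and 26.1 CPM in adult cultures (log2 fold change 0.20, SE 0.26, adjusted p = 0.770). The groups overlapped for both, and the highest library was E14.5 replicate 1 for Hoxb9 and E14.5 replicate 3 for Hoxb3. At the ends of the cluster, Hoxb1 had a single count in E14.5 replicate 3, and Hoxb13, a hindgut and prostate gene, had 1, 0 and 0 counts in E14.5 and 0, 2 and 2 in adult cultures. Both were at or below the floor of 3 counts in every library.

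**Figure D3:**
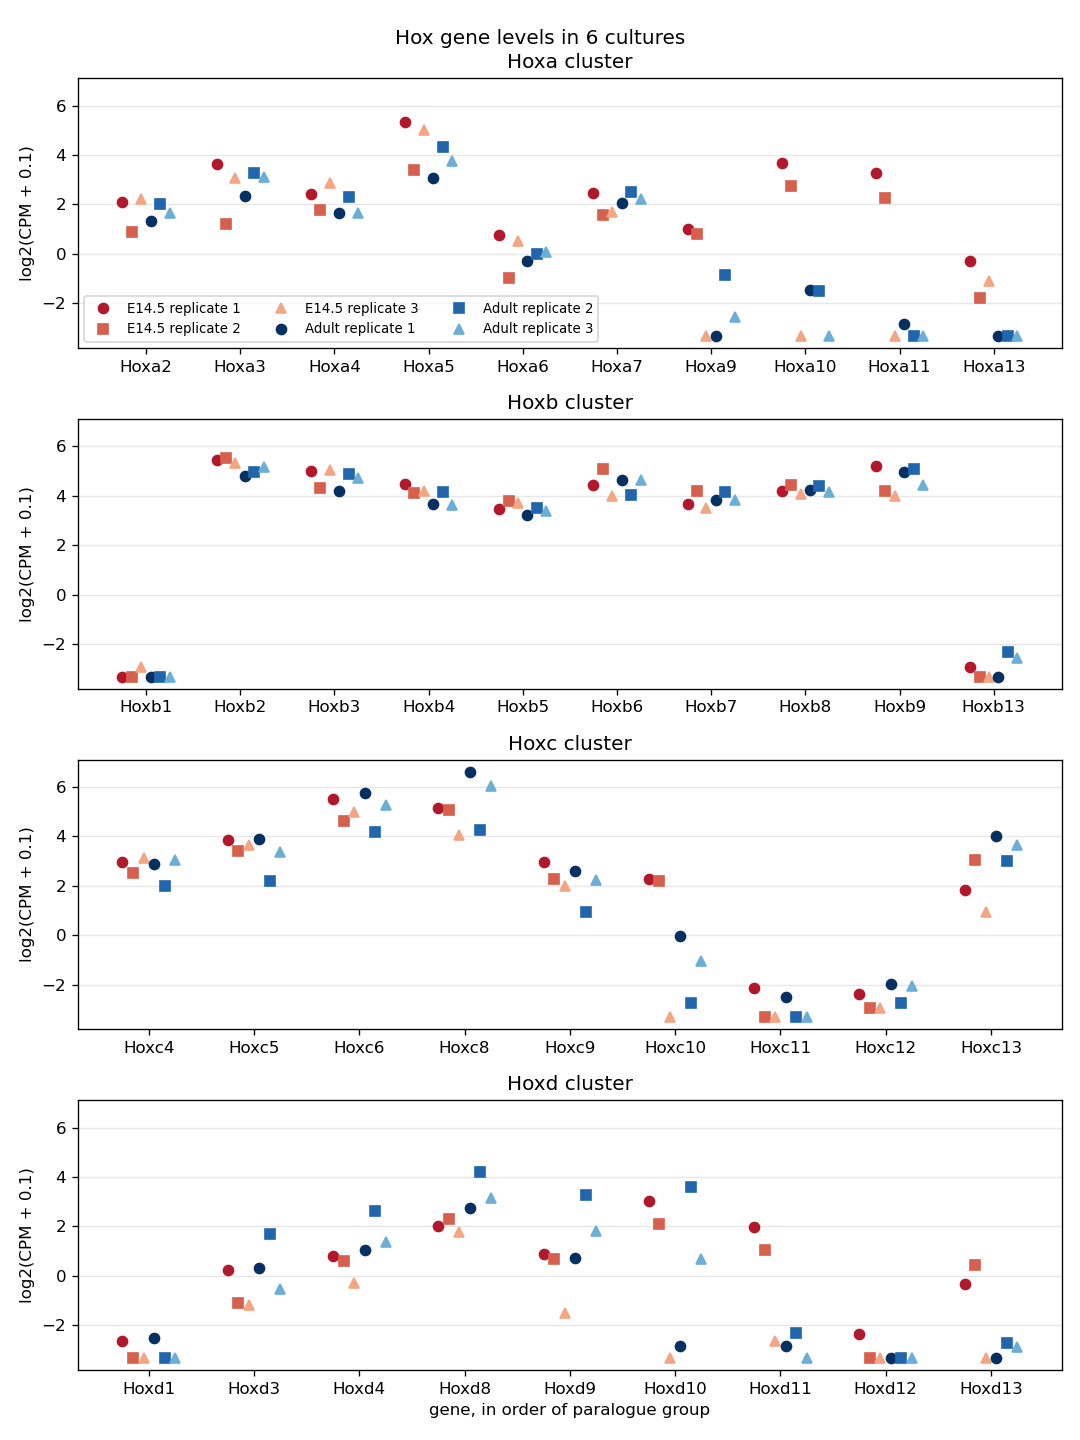
Level of 38 of the 39 Hox genes in the 6 libraries as log2(CPM + 0.1) (y axis), by cluster and in order of paralogue group (x axis), with 1 symbol per library. Hoxb2 to Hoxb9 keep a narrow band, adult replicate 2 is low in Hoxc and high in Hoxd, and the groups 10 to 13 scatter down to the floor.

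Levels can be set side by side between genes only per length of transcript. Per kilobase of annotated exon and averaged over the 6 libraries, Hoxc8 (23.9 CPM per kb), Hoxb2 (22.9 CPM per kb) and Hoxc6 (22.5 CPM per kb) led, followed by Hoxb6 (11.6 CPM per kb), Hoxb7 (11.4 CPM per kb), Hoxa5 (11.1 CPM per kb) and Hoxb9 (10.2 CPM per kb). The order differed between the groups. Hoxb2 was at 27, 28 and 24.7 CPM per kb in E14.5 replicates 1, 2 and 3, above Hoxc8 at 19.1, 17.9 and 8.93 CPM per kb, whereas in adult replicates 1, 2 and 3 Hoxb2 was at 16.9, 19 and 22 and Hoxc8 at 52.2, 10.2 and 35 CPM per kb. Hoxc6 (11.4 to 34.5 CPM per kb) overlapped both in each group, and the next 4 genes overlapped each other in each group, except that Hoxb7 was above Hoxa5 in all adult cultures. Averaged over the 6 libraries, no Hoxd gene was above 2.78 CPM per kb, the value of Hoxd8. In adult replicate 2, however, Hoxd8 was at 6.62 and Hoxd10 at 6.59 CPM per kb. On the same average, Hoxc13, at 3.38 CPM per kb, was the only member of groups 11 to 13 above 1.04 CPM per kb, the value of Hoxa11. In E14.5 replicate 1 alone, Hoxa11 (4.16 CPM per kb) and Hoxd11 (3.49 CPM per kb) were above Hoxc13 (1.41 CPM per kb).

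In the Hoxc cluster, 4 of the 7 tested genes had a positive and 3 a negative log2 fold change, with a median of 0.17. Hoxc8, a thoracic patterning gene, was at 35.7, 33.5 and 16.7 CPM in E14.5 and 97.6, 19.1 and 65.3 CPM in adult cultures. Adult replicates 1 and 3 were the highest 2 libraries, but adult replicate 2 lay within the embryonic range (log2 fold change -1.08, SE 0.60, edgeR adjusted p = 0.421). Hoxc6, its neighbour with a role in the thorax and mammary gland, was at 46.2, 24.5 and 32 CPM in E14.5 and 54.5, 18 and 38.6 CPM in adult cultures (log2 fold change -0.11, SE 0.43, edgeR adjusted p = 0.934). Hoxc5 was at 14.5, 10.6 and 12.6 CPM in E14.5 and 14.9, 4.47 and 10.1 CPM in adult cultures (log2 fold change 0.35, SE 0.43, edgeR adjusted p = 0.754). Adult replicate 1 was the highest and adult replicate 2 the lowest of all 6 libraries for Hoxc5 and Hoxc6. Without adult replicate 2, the log2 fold change of Hoxc8 was -1.51 (edgeR adjusted p = 0.190).

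Hoxc13, the last gene of the cluster and known for hair and nail formation, stood apart from its neighbours. It was at 3.47, 8.13 and 1.82 CPM in E14.5 and 16.2, 7.85 and 12.5 CPM in adult cultures, that is 59 to 262 counts and 158 to 427 counts. Adult replicates 1 and 3 were above all embryonic cultures, and adult replicate 2 was just below embryonic replicate 2. The log2 fold change was -1.44 (SE 0.58) with an edgeR p of 0.0464 and an adjusted p of 0.270. Hoxc11 and Hoxc12, which lie between Hoxc10 and Hoxc13, had at most 4 counts in any library. High Hoxc13 therefore did not come with its adjacent genes, and its order of libraries was unlike that of the 7 posterior genes above, since it was present in all 6 cultures.

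All 5 tested Hoxd genes had a negative log2 fold change, from -2.05 to -0.12, with a median of -1.46. This tally rests on the filter and on adult replicate 2. Without that library the values were 2.40 for Hoxd10, -1.10 for Hoxd9 and -0.55 for Hoxd3, and with no filter Hoxd11 (5.42), Hoxd12 (3.02) and Hoxd13 (4.39) had positive values, none called by edgeR. Hoxd8, a trunk gene, was at 3.94, 4.87 and 3.34 CPM in E14.5 and 6.59, 18.2 and 8.82 CPM in adult cultures. All adult cultures lay above all embryonic ones, with means of 11.2 ± 6.15 CPM (SD, n = 3) and 4.05 ± 0.773 CPM (SD, n = 3). The log2 fold change was -1.46 (SE 0.42), which did not pass edgeR's test (adjusted p = 0.151) and passed that of DESeq2 (adjusted p = 0.015). Without adult replicate 2 it was -0.93 (edgeR adjusted p = 0.290).

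Hoxd4, at 1.63, 1.4 and 0.711 CPM in E14.5 and 1.97, 6.11 and 2.5 CPM in adult cultures, also had groups that did not overlap (log2 fold change -1.49, SE 0.57, edgeR adjusted p = 0.246). Adult replicate 2 was again the highest library, and without it the value was -0.84 (adjusted p = 0.520). Hoxd9 was at 1.72, 1.49 and 0.247 CPM in E14.5 and 1.55, 9.49 and 3.38 CPM in adult cultures, and adult replicate 1 lay between embryonic replicates (log2 fold change -2.05, SE 0.91, edgeR adjusted p = 0.314). Hoxd3 had 11 to 34 counts in E14.5 and 17 to 63 in adult cultures. Of its exon bases in GENCODE M21, 68.6% are shared on the same strand with the readthrough model Gm28230, as are 45.1% of those of Hoxd4. The annotation used for counting is not named. If it held that model, reads of both genes could be lost, so their counts are uncertain. Smaller shares of Hoxd11 (23.9%), Hoxa2 (15%), Hoxa3 (10.1%) and Hoxd10 (5.7%) overlap other such models. Hoxd1, at the front of the cluster, had at most 2 counts.

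Adult replicate 2 differed from the other adult cultures in opposite directions in 2 clusters. It was the lowest adult library for all 7 tested Hoxc genes and the highest adult library for all 5 tested Hoxd genes, for 7 of 8 Hoxa genes and for 6 of 8 Hoxb genes. Over all genes tested, it was the lowest adult library for 38.7% and the highest for 38.8%. Against all 6 libraries it was the lowest for 4 of the 7 Hoxc genes and the highest for all 5 Hoxd genes, against 16.3% and 17.3% of all genes tested. Neighbouring Hox genes are not independent, and these counts are given with no test. This culture had the highest endothelial marker sum, 1914 CPM, and the lowest mesenchymal marker sum, 19723 CPM, and its depth was the lowest. The part of endothelial cells or of depth in its Hox levels was not tested.

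The share of all Hox counts in each cluster shows the same shift. Shares of counts depend on transcript length and are read across libraries only. Hoxc genes took 50.3% (95% Wilson interval 49.3 to 51.3) of Hox counts in adult replicate 1, 39.1% (38.1 to 40) in replicate 3 and 16.5% (15.7 to 17.4) in replicate 2, against 24.7% to 27.4% in E14.5. Hoxd genes took 2.9%, 14.7% and 4.7% in adult replicates 1, 2 and 3, and 4.85%, 4.63% and 1.54% in the embryonic ones. Hoxa genes took 22.4%, 12% and 20.2% in E14.5 and 6.91%, 15.6% and 10.7% in adult cultures, and Hoxb genes between 39.9% and 56.1% in all. The adult cultures thus spread more widely than the embryonic ones in Hoxc and Hoxd share, and the groups overlapped for Hoxa, Hoxb, Hoxc and Hoxd alike. Groups 10 to 13 made up 10.1%, 9.4% and 0.748% of Hox counts in E14.5 and 4.49%, 6.1% and 4.08% in adult cultures. Without Hoxc13 these shares were 9.31%, 6.98% and 0.152% (0.0919 to 0.25) in E14.5 and 0.376%, 3.76% and 0.599% in adult cultures. The summed level of all 39 genes was 438, 336 and 306 CPM in E14.5 and 393, 335 and 358 CPM in adult cultures, so the total differed less than its division.

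**Figure D4:**
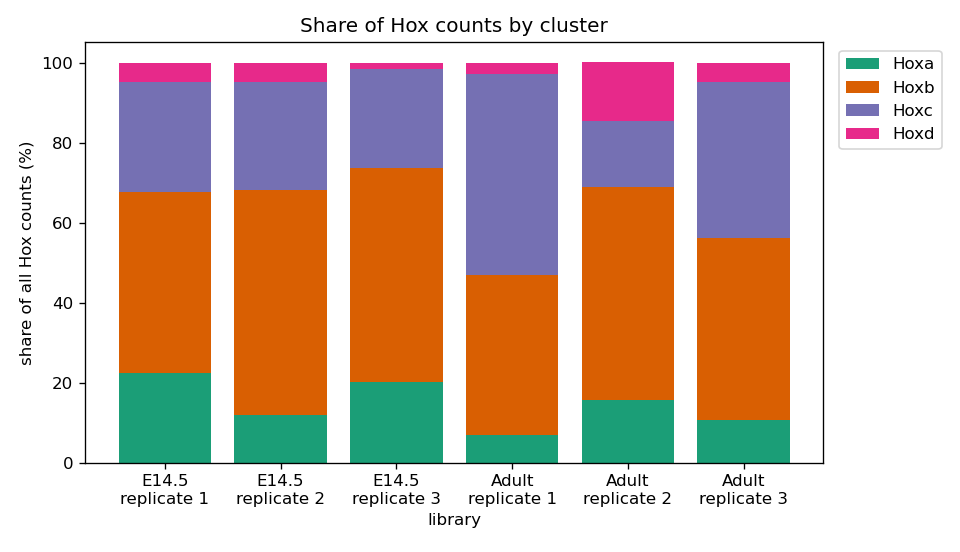
Share of all Hox counts (y axis, percent) that fell in the Hoxa, Hoxb, Hoxc and Hoxd clusters in each of the 6 libraries (x axis). Hoxc takes 50.3% in adult replicate 1 and 16.5% in adult replicate 2, where Hoxd takes 14.7%.

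Cultures of the same group differed more in Hox genes than in most genes tested, which were not matched to the Hox genes in level. The SD of log2 CPM between cultures, pooled over both groups, had a median of 0.61 over the 28 tested Hox genes and of 0.28 over all genes tested. Of the 28, 24 were above that overall median and 7 were above the overall 90th percentile of 0.96. The median was 0.51 for the anterior, 0.48 for the central and 1.34 for the posterior tested genes. Hoxd10 (3.57), Hoxc10 (2.70) and Hoxa9 (2.19) had the widest spread, whereas Hoxb2 (0.15), Hoxb5 (0.16) and Hoxb8 (0.16) had the narrowest. The widest 3 are among the posterior genes picked above for being at 0 to 2 counts in E14.5 replicate 3. When 1 library was left out, the Hox median ranged from 0.46 (without adult replicate 2) to 0.70 (without adult replicate 3).

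**Figure D5:**
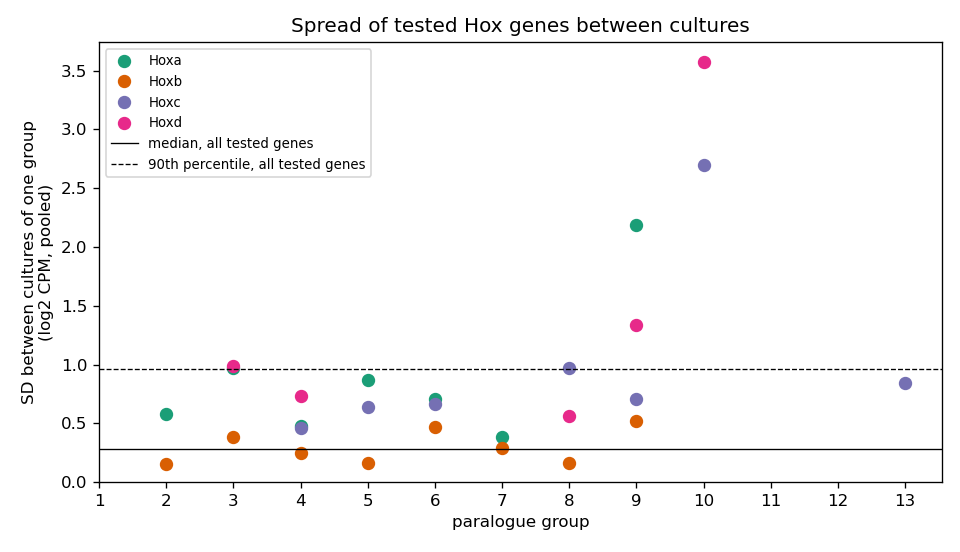
SD of log2 CPM between cultures of one group, pooled over E14.5 and adult (y axis), for 27 of the 28 tested Hox genes by paralogue group (x axis), with the median (0.28) and 90th percentile (0.96) of all genes tested as lines. The 3 widest values are those of Hoxd10, Hoxc10 and Hoxa9, and the 3 lowest are those of Hoxb2, Hoxb5 and Hoxb8.

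Partners and regulators of Hox proteins were examined as lists. PBX, MEIS and PREP proteins bind DNA together with Hox proteins. Of their 10 genes, all were tested and none passed edgeR's test in either direction, with a median log2 fold change of 0.25. Pbxip1, whose product binds PBX proteins, lay between 242 and 426 CPM in E14.5 and between 294 and 494 CPM in adult cultures (log2 fold change -0.26, SE 0.28, adjusted p = 0.717).

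Polycomb proteins keep Hox genes silent and Trithorax proteins keep them active. None of the 29 tested Polycomb genes passed the test, with a median log2 fold change of -0.07, and 3 had an unadjusted p under 0.05, a smaller share than the 17.9% of all genes tested. These 3 were Pcgf5 (17.3, 21.6 and 18 CPM in E14.5 and 29.1, 37.8 and 37.5 CPM in adult cultures, log2 fold change -0.87, SE 0.16, edgeR adjusted p = 0.070), Phf1 (-0.69, SE 0.14, adjusted p = 0.096) and Bmi1 (-0.50, SE 0.13, adjusted p = 0.133). The groups did not overlap for these 3, which were selected by their p, nor for Eed, Pcgf1, Pcgf6, Cbx6 and Phc1 of the same list. Over all genes tested, the share without overlap was 24.1%. Rbbp7 and Rbbp4, histone-binding subunits with high CPM, had log2 fold changes of 0.02 and 0.05. Among 13 tested Trithorax-type genes none passed, with a median of 0.01. In this list 3 genes had an unadjusted p under 0.05, a share near the 17.9% of all genes tested, namely Mll1 (the histone H3 lysine methyltransferase KMT2A, -0.36, edgeR adjusted p = 0.238), Ash1l (-0.33, adjusted p = 0.238) and Psip1 (-0.28, adjusted p = 0.271). Hcfc1, a cofactor subunit of these complexes, had a log2 fold change of 0.05.

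Non-coding transcripts of the clusters were mostly scarce. Of 13 with a row, 4 were tested and none passed, with a median log2 fold change of -0.73. Beside 5730457N03Rik these were Mira (-0.49, SE 0.29, edgeR adjusted p = 0.449), Gm53 (-0.96, SE 0.66, adjusted p = 0.530) and Mir196a-1. The last, in the Hoxb cluster and named for a microRNA that targets Hox transcripts, had 11, 1 and 4 counts in E14.5 and 19, 13 and 20 in adult cultures. Every adult library was above every embryonic one (log2 fold change -2.03, SE 0.73, edgeR adjusted p = 0.221), but poly(A) libraries count the precursor transcript and not the mature microRNA. Hotair, from the Hoxc cluster, had 2 counts in E14.5 replicate 1 and 0 elsewhere. Of 20 genes that flank the 4 clusters, 16 were tested and none passed, with a median of 0.08. Smug1 (0.43, SE 0.15, edgeR adjusted p = 0.215) and Lnp (-0.35, SE 0.11, adjusted p = 0.178) had an unadjusted p under 0.05. Tax1bp1 and Cbx5 had log2 fold changes of 0.02 and -0.24.

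Other genes of gut position were compared as lists. The ParaHox genes, relatives of the Hox genes that pattern the gut epithelium, had at most 2 counts in any library. Of 6 factors of stomach and pyloric mesenchyme, 2 were tested and none passed, Gata3 (log2 fold change 0.15, edgeR adjusted p = 0.930) and Isl1 (-1.04, adjusted p = 0.691). Of 10 factors of small intestinal mesenchyme, all were tested and none passed, although 8 had an unadjusted p under 0.05 against 17.9% of all genes. Hand1, which shapes gut and extraembryonic mesoderm, was at 43.8, 64.6 and 29 CPM in E14.5 and 22, 8.44 and 14 CPM in adult cultures (log2 fold change 1.63, SE 0.43, edgeR adjusted p = 0.134). Hlx (0.72, SE 0.27, adjusted p = 0.244) and Hand2 (0.51, SE 0.17, adjusted p = 0.187) were the other positive ones. Gata4 (-2.69, SE 1.10, edgeR adjusted p = 0.276), Tcf21 (-2.17, SE 0.71, adjusted p = 0.184) and Foxl1 (-1.96, SE 0.61, adjusted p = 0.171) were lower in every embryonic than in every adult culture. Foxl1 was scarce, with 8, 8 and 3 counts in E14.5 and 10, 16 and 33 in adult cultures. Other genes of this list, Nkx2-3, Hand1 and Hand2 among them, also had groups without overlap. Over all genes tested, that share was 24.1%. Nkx2-3, an intestinal mesenchyme factor, was at 56.8, 38.8 and 65.3 CPM in E14.5 and 75, 78.3 and 75.6 CPM in adult cultures (-0.51, SE 0.20, adjusted p = 0.248).

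Of 12 factors of limb, body wall and trunk, 7 were tested, and Prrx1 and Tbx15 fell in E14.5 against adult. Prrx1, a homeobox gene of limb and connective tissue mesenchyme, was at 1.38, 0.31 and 0.525 CPM in E14.5 and 54.5, 29.6 and 50 CPM in adult cultures (log2 fold change -5.92, SE 0.60, edgeR adjusted p = 0.022). Tbx15, a factor of skin and skeletal mesenchyme, was at 0.5, 1.43 and 0.587 CPM in E14.5 and 6.7, 9.19 and 7.03 CPM in adult cultures (-3.18, SE 0.49, adjusted p = 0.046). The groups stood clear of each other for both. The median of the 7 was -1.29, and En1 (-1.86, SE 0.63, edgeR adjusted p = 0.197) and Emx2 (-0.88, SE 0.18, adjusted p = 0.090) did not pass. Of 34 homeobox genes outside the Hox clusters, 23 were tested, with a median of -0.37. Values with an unadjusted p under 0.05 that did not pass edgeR's test included those of Dlx1 (-3.70, adjusted p = 0.091), Irx2 (3.03, adjusted p = 0.144), Dlx5 (2.69, adjusted p = 0.275), Dlx2 (-2.60, adjusted p = 0.065) and Tgif2 (1.20, adjusted p = 0.177). Zeb1 and Zeb2, repressors of epithelial genes, had log2 fold changes of -0.35 and -0.37. When 1 library at a time was left out, the edgeR adjusted p ranged from 0.019 to 0.137 for Prrx1 and from 0.017 to 0.199 for Tbx15. The Tbx15 call was also lost with upper-quartile scaling (edgeR adjusted p = 0.052) and with library size alone (adjusted p = 0.054). Both calls kept their direction without any single library. The sum of 7 mesothelial markers lay between 150 and 785 CPM in embryonic and between 637 and 1510 CPM in adult cultures, and their part in these differences was not tested.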

How the data were processed

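For each library the authors deposited unnormalized read counts by gene, as whole numbers, from poly(A) stranded RNA-seq, aligned with STAR to mm10 per the submitters' processing notes, with no version or annotation named. Of the 3 count columns the reverse-strand one was used, since forward-strand counts made up 1.33% to 1.69% of stranded gene counts. The 17.45% to 19.81% of reads in rows that name no gene entered neither library sizes nor tests, and reads that map to several genes are not in gene rows.

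All genes were fitted in R 4.3.3 with edgeR 4.0.16 (filterByExpr by group, TMM scaling, robust quasi-likelihood test, Benjamini-Hochberg adjustment over all genes tested, threshold 0.05), after a check on simulated data. CPM use TMM library sizes, log2 CPM a prior count of 2. Each SE is approximate, namely the absolute log2 fold change over the square root of the F statistic. Alternatives used DESeq2 1.42.0, limma-voom (limma 3.58.1), other scalings and filters, unstranded counts, the title prefix as a block, and fits without single libraries or without adult replicate 2 and E14.5 replicate 3 together. Exon lengths come from GENCODE M21, promoters and coordinates from RefSeq on GRCm38. The Hox genes, the gene lists and the tests were chosen with earlier results of these data known. Values in every library are given for Hox genes with an unadjusted p under 0.05 or called by DESeq2, for the 3 with the highest mean CPM in each cluster, and for the first untested gene behind the last tested one; the 7 posterior genes, Evx1 and the non-Hox genes of their pattern were added after their values were seen. Of each other list, genes past the test, up to 3 in each direction with an unadjusted p under 0.05 and the 2 of highest mean CPM are named. A few genes that these rules select are not reported here, though list counts and medians include them. Replicates were numbered in accession order. Each title prefix is shared by an E14.5 and an adult library. Across genes, such libraries did not deviate together (r of -0.141, -0.229 and -0.088), and the main fit did not pair them. Their forward-strand shares in E14.5 and adult were close, at 1.49% and 1.54% (replicates 1), 1.68% and 1.69% (replicates 2) and 1.34% and 1.33% (replicates 3). Such correlations cannot decide if the prefix marks a shared batch or origin, which was not tested.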

Additional observations from a re-analysis of the deposited data

Results flagged for a closer look

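Forward-strand counts, which the comparisons do not use, were above 3 in number and above the library-wide share in all 6 libraries on the rows of 5 Hox genes. Over the 6 libraries together, forward-strand counts were 18.9% of stranded counts on the Hoxd3 row, 4.82% on the Hoxa3 row, 3.11% on the Hoxb2 row, 3.08% on the Hoxb7 row and 3% on the Hoxb3 row, against 1.33% to 1.69% over all genes of a library. The Hoxc9 row was also above that share in all 6 libraries, at 6.42% together, but with 3 forward-strand counts in adult replicate 2. On the Hoxd3 row they numbered 4 to 10 counts per library, and on the Hoxb2 row 18 to 62. Their source was not tested. Groups of 3 libraries are too small for the check on single outlying samples.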

How the results depend on the processing

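The count of Hox genes past the test stayed at 0 in both directions under other scalings, other filters, limma-voom, unstranded counts and without adult replicate 2 and E14.5 replicate 3 together. DESeq2 called 2 higher and 1 lower, and with 1 library left out edgeR called 0 to 1 higher (Hoxa11, without E14.5 replicate 3, where it had 0 counts) and 0 lower. The median log2 fold change of tested Hox genes ranged from 0.01 to 0.34 when 1 library was left out, highest without adult replicate 2; more genes passed the filter there (33 Hox genes tested). Calls over all genes ranged from 3 to 471 in these fits, and DESeq2 made 1565. With the title prefix as a replicate block, 0 Hox genes and 2 of all genes were called and the Hox median was 0.05. The calls of Prrx1 (adjusted p = 0.074) and Tbx15 (adjusted p = 0.102) were lost in that edgeR fit, as was that of Pdgfra (adjusted p = 0.094). Some signs turned, and among the genes given here Hoxd10, at -0.12 in the main fit, moved farthest. With 1 library left out, log2 fold changes ranged from -0.56 to 0.42 for Hoxa3, -0.45 to 0.27 for Hoxc6 and -1.07 to 2.40 for Hoxd10. The value of 2.40 was that without adult replicate 2, where Hoxd10 had 241 counts against 1 and 43 in adult replicates 1 and 3. Hoxa3 was at 0.0015 with upper-quartile scaling and 0.003 with library size alone. Without that pair of libraries, values were 0.07 for Hoxa3, 0.07 for Hoxb9, -0.0025 for Hoxc5 and 2.97 for Hoxd10. The cause was not tested. With 3 libraries a group and counts of a few reads, Hoxb1, Hoxb13, Hoxc11, Hoxc12, Hoxd1 and Hoxd12 could not be compared at this depth.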
